A study of Mus musculus with 4 samples.

Results

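The S100 proteins are small calcium-binding proteins of the EF-hand superfamily, and 10 of their genes were followed in RNA sequencing of whole mouse testis. The members were the rows of the deposited table named S100a1, S100a4, S100a6, S100a8, S100a9, S100a10, S100a11, S100a13, S100a16 and S100b, which is 10 of 49492 gene rows, and all 10 names were found. The study has 4 libraries from testes of male C57BL/6J mice, all treated with LPS (lipopolysaccharide, a bacterial cell wall component). By the labels, 2 carry a Spry1 knockdown by a short hairpin RNA and 2 carry a control hairpin and are marked wild type. Spry1 encodes Sprouty 1, which dampens growth factor signalling downstream of receptor tyrosine kinases. How the hairpins were delivered, which cells they reached and how old the animals were is not given in the sources used here, nor whether libraries came from separate animals, so p-values rest on the spread between these libraries alone, and that spread may be technical.

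In the table, samples stand under the headings LPS and NC with a number, not under their titles. LPS was read as the Spry1 knockdown and NC as the control hairpin. This reading of the names could not be checked independently, since LPS stands in every title, and if the headings mean LPS against no LPS, every difference below belongs to that contrast. Below, each group goes by its heading as the LPS set or the NC set, and positive log2 fold changes mean higher in the LPS set. Libraries held 17612342 to 22451132 counts. Spry1 itself had 26 and 17 counts in the LPS set and 45 and 41 in the NC set (log2 fold change -0.82 ± 0.28, standard error (SE); edgeR quasi-likelihood, Benjamini-Hochberg adjusted p = 0.0212). Its counts were in view when the headings were read, it overlaps Gm42922, and DESeq2 did not call it (adjusted p = 0.249). Nor did edgeR once library LPS 2 (adjusted p = 0.183), library NC 1 (adjusted p = 0.0952) or library NC 2 (adjusted p = 0.0653) was dropped.

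S100 proteins form dimers, and calcium binding opens a surface that grips target proteins inside the cell, among them annexins, myosin and calcium pumps. Some are also released. S100a8 and S100a9 together form calprotectin, abundant in the cytosol of neutrophils and monocytes, and act outside the cell as alarmins through Toll-like receptor 4 (Tlr4) and the receptor for advanced glycation end products (Ager). In whole tissue, fewer cells of a type and less RNA per cell cannot be told apart.

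All 10 members are annotated as protein-coding in GENCODE mouse release 21 on mm10. Of these, 9 lie on chromosome 3. A block of 7 members runs from S100a1 (ENSMUSG00000044080.9, chr3:90511034-90514392, minus strand) to S100a9 (ENSMUSG00000056071.12, chr3:90692632-90695721, minus strand), with 182 kb between their starts. S100a11 (chr3:93520488-93526287) and S100a10 (chr3:93555080-93564643) lie apart from that block, and S100b is on chromosome 10 (chr10:76253853-76261159). S100a1 and S100a13 (chr3:90514435-90524581, plus strand) stand head to head with 42 bases between their annotated ends, and S100a8 (chr3:90668978-90670035, plus strand) and S100a9 face each other tail to tail. The sequences upstream of S100a8 and S100a9 are shown because their products work as a pair, and the 42 bases between S100a1 and S100a13 because the genes on either side of them gave unlike values. They come from the RefSeq promoter table (GRCm38.p6), read 5′ to 3′ on the strand named, cut to bases before the annotated gene, and overlap no GENCODE gene. Capitals mark matches to the motif letters given below.
S100a8, chr3:90668821-90668977, plus strand: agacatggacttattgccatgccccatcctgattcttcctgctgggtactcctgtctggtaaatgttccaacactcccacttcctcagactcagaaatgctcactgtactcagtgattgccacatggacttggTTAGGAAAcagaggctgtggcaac
S100a9, chr3:90695722-90695971, minus strand: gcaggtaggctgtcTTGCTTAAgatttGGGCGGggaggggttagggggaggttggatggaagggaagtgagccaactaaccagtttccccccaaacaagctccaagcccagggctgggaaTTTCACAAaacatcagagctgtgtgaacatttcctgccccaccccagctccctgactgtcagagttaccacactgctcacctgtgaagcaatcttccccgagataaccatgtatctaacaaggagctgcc
S100a1-S100a13 gap, chr3:90514393-90514434, plus strand: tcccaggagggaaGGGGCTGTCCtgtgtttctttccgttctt

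Both strands were searched. The C/EBP-type motif was TTNNGNAA, and the NF-kB-type motif opens with GGG and closes with CC around any 5 bases. The AP-1-type letters were TGANTCA and the STAT-type letters were TTCNNNGAA. A GC box was read as GGGCGG, while a TATA box was read as TATAAA. The S100a8 stretch held 1 C/EBP-type match, TTAGGAAA, a letter pattern that 27.2% of 27025 RefSeq promoters hold in a window of the same 157 bases. The S100a9 stretch held 2 C/EBP-type matches, TTGCTTAA and TTTCACAA, present at least once in 36.9% of promoters over the same 250 bases, and 1 GC box, present in 32.9%. The gap between S100a1 and S100a13 held 1 NF-kB-type match, GGGGCTGTCC, found in 11.8% of promoters over 42 bases. No match overlapped another, and no other searched pattern occurred in these windows. A match is a run of letters and not a measured binding site. Of the 10 members, 9 had a promoter entry, and S100a10 was the member without one.

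The alarmin S100a9 gave the widest contrast of the members. It had 35 and 32 counts in the LPS set, against 0 in both libraries of the NC set. Scaled to library size with TMM factors (CPM), that is 1.78 ± 0.01 CPM against 0 CPM (SD, n = 2 per group). S100a9 rose, at least 25.3-fold when the NC set is put at a floor of 3 counts over the group, with an adjusted p of 7.59e-10 by edgeR's quasi-likelihood test. A count of 0 in 1 NC library allows up to 0.136 or 0.146 CPM. Because S100a9 was high enough to be tested only through the LPS set, its passing the filter and its call are not separate facts. Over 9 alternative settings its adjusted p ranged from 6.45e-22 to 1.56e-05, in edgeR, DESeq2 or limma.

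Its partner S100a8 was close to the detection limit. It had 5 and 2 counts in the LPS set and 0 and 1 in the NC set, so the groups did not overlap but rest on 8 reads in all. The ratio of scaled counts was 7.92, with an exact binomial 95% interval of 1.02 to 357, which covers counting error only. S100a8 was too low to be tested, and without the filter edgeR gave an adjusted p of 0.213. In the LPS set S100a9 thus had 7 and 16 times the counts of S100a8, or per length of transcript 9.31 and 21.3 times its level.

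Markers of neutrophils, the cells best known for this pair, were mostly near 0 beside it. Of 13 neutrophil markers, 2 were high enough to be tested: Mpo, the granule myeloperoxidase, had 25 and 22 counts in the LPS set and 11 and 13 in the NC set (log2 fold change 1.14 ± 0.36, SE, edgeR adjusted p = 0.0136), and Csf3r was not called (0.36 ± 0.39). DESeq2 did not call Mpo (adjusted p = 0.217), nor did edgeR without library LPS 1 (adjusted p = 0.0710), library LPS 2 (adjusted p = 0.0562) or library NC 1 (adjusted p = 0.142). The defining surface marker Ly6g had 0 counts in both libraries of the LPS set and 4 and 6 in the NC set. The granule gene Camp had 0 and 0 counts in the LPS set and 1 and 0 in the NC set, and Ngp had 2 and 2 in the LPS set and 0 in both libraries of the NC set. The summed level of the 13 markers was 2.64 and 3.47 CPM in the LPS set and 2.14 and 2.14 CPM in the NC set, 2 ranges that do not overlap. That separation rests on Mpo, which averaged 1.25 CPM in the LPS set and 0.567 CPM in the NC set. With Mpo left out of the sum, the ranges overlap. Among all genes tested, 64.1% had groups apart in CPM in either direction.

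Macrophage and monocyte markers moved in both directions. Of 13 markers 12 were tested, and 5 rose, 4 fell and 3 were not called, against 15.2% of all genes tested higher and 16.3% lower. Itgam, an integrin chain of myeloid cells, rose by 2.68 ± 0.18 and Adgre1, which encodes the macrophage antigen F4/80, by 1.97 ± 0.16 (log2, SE). The scavenger receptor gene Cd163 fell by 2.00 ± 0.57, and F13a1, a coagulation factor gene of resident macrophages, fell by 1.70 ± 0.21. Cd163 was not called by DESeq2 (adjusted p = 0.158), nor by edgeR without library LPS 2 (adjusted p = 0.104) or library NC 1 (adjusted p = 0.166). Ly6c2, a marker of inflammatory monocytes, had 9 and 5 counts in the LPS set and 1 and 0 in the NC set. The summed level of the list was 87.9 and 95.5 CPM in the LPS set and 68.0 and 74.9 CPM in the NC set. That separation leans on Lyz2, which gave the largest single difference in the sum. Lyz2 averaged 28.4 CPM in the LPS set and 12.8 CPM in the NC set. Groups lay apart in CPM, in either direction, for 64.1% of all genes tested. The part of neutrophil and macrophage numbers in the S100a9 result was not tested.

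Transcription factor genes known to act on S100a8 and S100a9 were mostly called higher by edgeR, and their part in the S100a9 result was not tested. Of 8 tested, 6 rose, 0 fell and 2 were not called, against 15.2% higher among all 20855 genes tested, and the median log2 fold change was 0.51, against 0.00 over all genes. Cebpd rose by 1.53 ± 0.16 (log2, SE), with 176 and 142 counts in the LPS set and 63 and 61 in the NC set. Its relative Cebpb rose by 1.61 ± 0.38, with 31 and 26 counts in the LPS set and 16 and 5 in the NC set. Spi1, the myeloid factor PU.1, rose by 0.95 ± 0.24 and Cebpa by 0.60 ± 0.21. The Cebpb value was 2.61 without library NC 1 and 1.06 without library NC 2, where its call was lost (edgeR adjusted p = 0.0617). DESeq2 also did not call Cebpb (adjusted p = 0.0550), Spi1 (adjusted p = 0.0851) or Cebpa (adjusted p = 0.261). In edgeR the Cebpa call was also lost without library LPS 2 (adjusted p = 0.152) or library NC 1 (adjusted p = 0.217).

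Receptors for extracellular S100 proteins were in part too low to test. Tlr4 had 4 and 10 counts in the LPS set and 3 and 4 in the NC set, and Ager had 6 and 4 in the LPS set and 6 and 3 in the NC set, so no difference was detectable at this depth for either. Of 10 receptor and co-receptor genes 7 were tested, and 1 rose, 2 fell and 4 were not called, with a median log2 fold change of 0.08. The shares over all genes tested were 15.2% higher and 16.3% lower. The Tlr4 co-receptor gene Cd14 rose by 2.503 ± 0.363 (log2, SE), with 33 and 48 counts in the LPS set and 9 and 7 in the NC set. Cd36, a scavenger receptor gene, fell by 1.58 ± 0.18 and the myeloid lectin gene Cd33 fell by 1.36 ± 0.33. Cd36 had 44 and 82 counts in the LPS set and 221 and 208 in the NC set, and its value was -2.17 without library LPS 2 and -1.13 without library LPS 1. Cd33 was not called by DESeq2 (adjusted p = 0.0641).

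**Figure D1:**
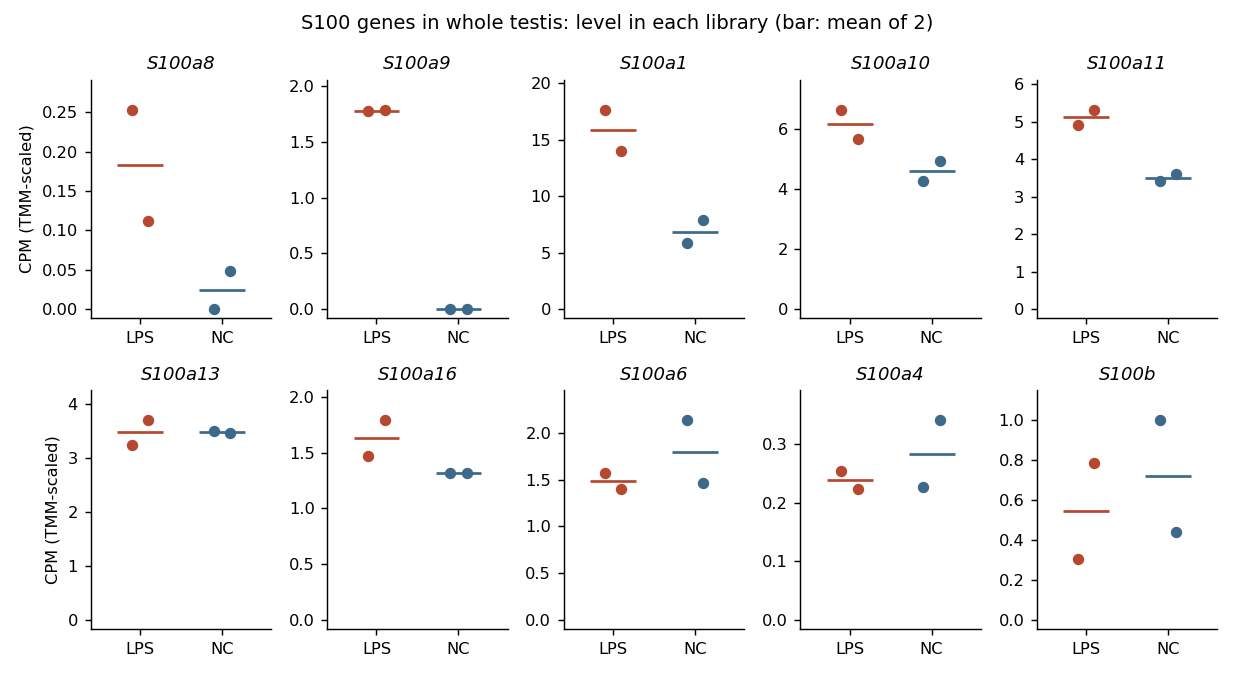
Level of each S100 gene in CPM with TMM-scaled library sizes (y axis, own scale per panel) in the LPS set (left) and the NC set (right). Points are libraries and bars the mean of 2. S100a8, S100a9, S100a1, S100a10, S100a11 and S100a16 show all LPS points above all NC points, with S100a8 resting on at most 5 counts a library.

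Across the family, 8 of 10 members were tested, and 4 rose (S100a1, S100a9, S100a10 and S100a11), 0 fell and 4 were not called by edgeR's quasi-likelihood test. Among all genes tested, 15.2% were called higher and 16.3% lower. Of the 8 tested members, 5 had groups that did not overlap in CPM, all 5 with the LPS set above, where 64.1% of all genes tested had groups apart in either direction and 32.1% had the LPS set above. S100a9 is among the 4 that rose and the 5 with groups apart. It passed the filter only through the LPS set, so it could enter these counts only as higher. DESeq2 called 2 members higher, S100a1 and S100a9, and 0 lower, against 6.97% of all genes higher and 8.85% lower. A count of 4 members higher stood against 20.2% of genes higher and 12.4% lower with library-size scaling, 15.1% and 16.2% with limma-voom, 9.22% and 9.52% of a longer list with no filter, and 16.2% and 17.2% with a replicate block. With 1 library left out, 3 members were higher without library LPS 1 (12.6% of genes higher, 13.7% lower), 3 without library LPS 2 (10.4% and 12.3%), 2 without library NC 1 (11.1% and 11.3%) and 4 without library NC 2 (2359 genes higher and 2665 lower of 21502). S100a1 and S100a9 also stayed called with each library left out in turn, while the calls of S100a10 and S100a11 did not.

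**Figure D2:**
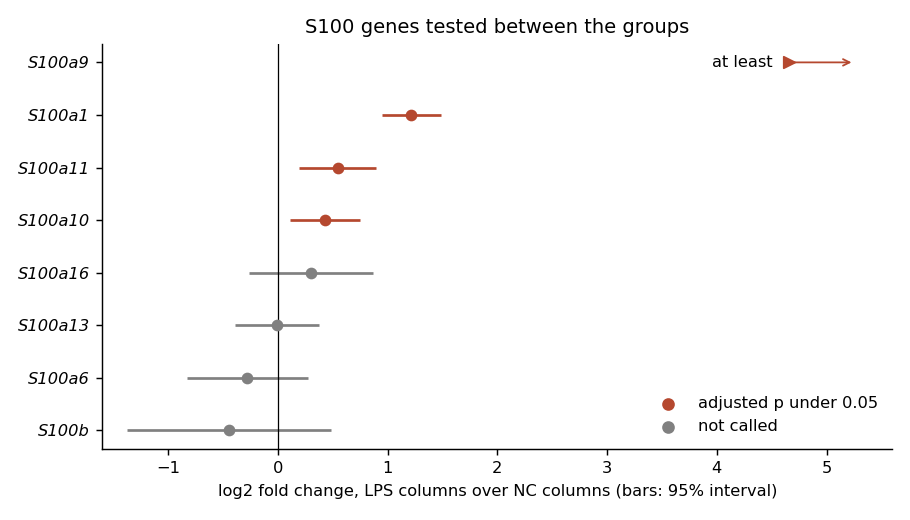
Log2 fold change of the 8 tested S100 genes, LPS set over NC set (x axis), with 95% intervals as bars. S100a9 is drawn at its lower bound of 25.3-fold, and the intervals of S100a16, S100a13, S100a6 and S100b span 0.

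S100a1 was the most abundant member in both groups and rose by 1.22 ± 0.13 on the log2 scale (SE), which is 2.32-fold. It is best known from heart muscle, where it binds the calcium pump and the ryanodine receptor. Its counts were 348 and 250 in the LPS set and 128 and 162 in the NC set, or 15.8 ± 2.58 CPM against 6.86 ± 1.47 CPM (SD, n = 2 per group). Both LPS libraries lay above both NC libraries, and edgeR gave an adjusted p of 2.27e-09. Its adjusted p stayed between 4.61e-22 and 6.36e-08 over the 9 alternatives in edgeR, DESeq2 or limma, with log2 fold changes of 1.01 to 1.45.

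S100a13, whose gene starts 42 bases beyond the 5′ end of S100a1, had 64 and 66 counts in the LPS set and 77 and 71 in the NC set. It is known for the non-classical export of Fgf1 and interleukin-1 alpha. After scaling it had 3.47 ± 0.32 CPM in the LPS set and 3.48 ± 0.03 CPM in the NC set (SD, n = 2 per group), and the groups overlapped. Its log2 fold change was -0.01, with a 95% interval of -0.39 to 0.38, and it was not called (edgeR adjusted p = 0.984). S100a1 thus had 5.44 and 3.79 times the counts of S100a13 in the LPS set and 1.66 and 2.28 times in the NC set. These ratios do not overlap, and the exact two-sided permutation test gave p = 0.333, the smallest that 2 against 2 libraries allow. The cargo gene Il1a, which overlaps Gm14023, had 29 and 27 counts in the LPS set and 24 and 35 in the NC set (log2 fold change 0.10 ± 0.29, SE). Fgf1 had 5 and 3 counts in the LPS set and 7 and 3 in the NC set, too few to be tested.

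S100a11 and S100a10, the annexin-binding members, were modestly higher. S100a11, a partner of annexin A1, had 97 and 95 counts in the LPS set and 75 and 74 in the NC set, or 5.12 ± 0.28 CPM against 3.51 ± 0.14 CPM (SD, n = 2 per group). The groups did not overlap, and it rose by 0.54 ± 0.17 on the log2 scale (SE; 1.46-fold, edgeR adjusted p = 0.0139). DESeq2 did not call it (adjusted p = 0.190), nor did edgeR without library LPS 2 (adjusted p = 0.0741) or library NC 1 (adjusted p = 0.0743), over values of 0.49 to 0.61.

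S100a10, which has lost calcium binding and forms a tetramer with annexin A2 that binds plasminogen at the cell surface, had 131 and 101 counts in the LPS set and 94 and 101 in the NC set. Raw counts of the groups touched at 101, and after scaling the levels were 6.65 and 5.66 CPM in the LPS set and 4.27 and 4.92 CPM in the NC set, without overlap. It rose by 0.43 ± 0.16 on the log2 scale (SE; 1.34-fold, edgeR adjusted p = 0.0366). DESeq2 did not call it (adjusted p = 0.296), nor did edgeR without library LPS 1 (adjusted p = 0.267) or library NC 1 (adjusted p = 0.222).

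Of the annexin genes paired with them, Anxa2 was not called, with 701 and 615 counts in the LPS set and 735 and 726 in the NC set (log2 fold change 0.03 ± 0.07, SE). S100a10 had 0.187 and 0.164 times the counts of Anxa2 in the LPS set and 0.128 and 0.139 times in the NC set (exact two-sided permutation p = 0.333, the smallest possible). Anxa1 was not called either, at 0.38 ± 0.21, beside 0.54 ± 0.17 for S100a11 (log2, SE). S100a11 had 1.59 and 1.73 times the counts of Anxa1 in the LPS set and 1.63 and 1.35 times in the NC set, ratios that overlap (exact two-sided permutation p = 0.667). Ahnak, a giant scaffold protein gene whose product binds the tetramer of annexin A2 and S100a10, rose by 0.39 ± 0.10, and Plat, the tissue plasminogen activator gene, rose by 0.92 ± 0.11. Ahnak was not called by DESeq2 (adjusted p = 0.0545).

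The members that were not called include S100a16, S100a6 and S100b. S100a16, a widely expressed member, had 29 and 32 counts in the LPS set and 29 and 27 in the NC set, and its scaled levels of 1.47 and 1.79 CPM lay above the 1.32 and 1.32 CPM of the NC set. Its log2 fold change was 0.30, with a 95% interval of -0.26 to 0.87 (edgeR adjusted p = 0.448). S100a6, the growth-related calcyclin, had 31 and 25 counts in the LPS set and 47 and 30 in the NC set, with overlapping scaled levels. Its log2 fold change was -0.28, with a 95% interval of -0.83 to 0.27 (edgeR adjusted p = 0.475). Its partner Cacybp, a component of a ubiquitin ligase, fell by 0.19 ± 0.06, and Anxa11, which overlaps Anxa11os, fell by 0.27 ± 0.09 (log2, SE). The Cacybp call was lost under 5 of the 9 alternatives and that of Anxa11 under 4, DESeq2 and library-size scaling among them for both.

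S100a4, known from fibroblasts and migrating cells, had 5 and 4 counts in the LPS set and 5 and 7 in the NC set and was too low to be tested. Its gene overlaps the gene model Gm42674 on the same strand, whose row holds the same 4 counts, so these reads are uncertain. Myh9, the non-muscle myosin heavy chain gene whose product S100a4 binds, rose by 0.59 ± 0.06 (log2, SE), with 2136 and 2143 counts in the LPS set and 1751 and 1468 in the NC set.

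S100b, the glial member of the family, had 6 and 14 counts in the LPS set and 22 and 9 in the NC set, a spread within each group wider than the gap between them. Its log2 fold change was -0.44, with a 95% interval of -1.37 to 0.48 (edgeR adjusted p = 0.501), and its sign turned without library LPS 1 or library NC 1. The gene overlaps Dip2a on the opposite strand, so its low counts are uncertain. Schwann cell markers that were called were all lower beside it: of 9 tested, 4 fell, 0 rose and 5 were not called. The shares over all genes tested were 16.3% lower and 15.2% higher. Erbb3, the neuregulin receptor gene, had 18 and 19 counts in the LPS set and 590 and 510 in the NC set (log2 fold change -4.71 ± 0.16, SE). Cdh19 had 0 counts in both libraries of the LPS set and 26 and 22 in the NC set, at least 14.1-fold lower with a floor of 3 counts over the group. Scn7a fell by 1.28 ± 0.29 and Ngfr fell by 0.67 ± 0.07, and DESeq2 did not call Scn7a (adjusted p = 0.0511). The glial factor gene Sox10 was not called, at -0.17 ± 0.27. The summed level of the 11 Schwann markers was 45.6 and 46.2 CPM in the LPS set and 93.93 and 95.02 CPM in the NC set. Most of that gap lay in Ngfr and Erbb3. Ngfr averaged 34.7 CPM in the LPS set and 55.2 CPM in the NC set, and Erbb3 averaged 0.988 and 25.8 CPM.

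**Figure D3:**
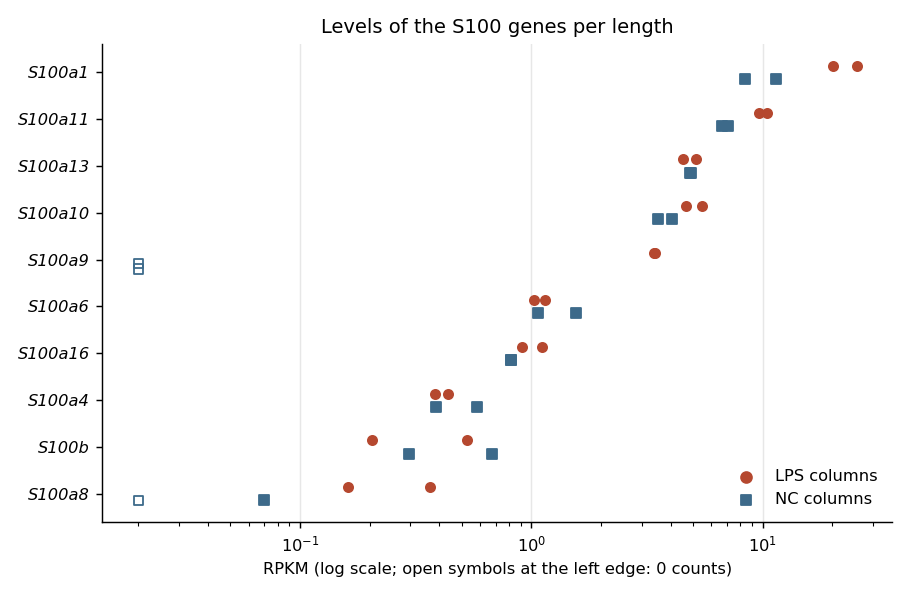
Level of each S100 gene per length in RPKM (x axis, log scale), with the LPS set as circles above the NC set as squares, each point a library. S100a1 and S100a11 lie at the high end, and open symbols at the left edge mark the 0 counts of S100a9 and S100a8 in NC libraries.

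Levels were compared between members per kilobase of exon (RPKM, with TMM-scaled library sizes). In the LPS set S100a1 averaged 22.8 ± 3.72 RPKM, S100a11 10.02 ± 0.55, S100a10 5.07 ± 0.58, S100a13 4.85 ± 0.44 and S100a9 3.42 ± 0.02 (SD, n = 2). S100a6 followed at 1.09 ± 0.09, S100a16 at 1.01 ± 0.14, S100a4 at 0.409 ± 0.036, S100b at 0.367 ± 0.229 and S100a8 at 0.263 ± 0.144. Neighbours whose libraries overlapped there were S100a10 with S100a13, S100a6 with S100a16, S100a4 with S100b and S100b with S100a8.

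In the NC set S100a1 averaged 9.88 ± 2.12 RPKM, S100a11 6.86 ± 0.27, S100a13 4.87 ± 0.04, S100a10 3.79 ± 0.38, S100a6 1.32 ± 0.35 and S100a16 0.814 ± 0.001 (SD, n = 2). S100a4 at 0.487 ± 0.138 and S100b at 0.485 ± 0.267 overlapped, and S100a8 at 0.035 ± 0.050 RPKM and S100a9 at 0 overlapped too. S100a9 was thus 5th of 10 in the LPS set and 10th in the NC set, where 1 read of S100a8 sets the order of the last 2. The members summed to 51.6 and 47.1 RPKM in the LPS set and 26.9 and 30.2 RPKM in the NC set, of which S100a1 made up 49.3% and 42.9% in the LPS set and 31.1% and 37.7% in the NC set.

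**Figure D4:**
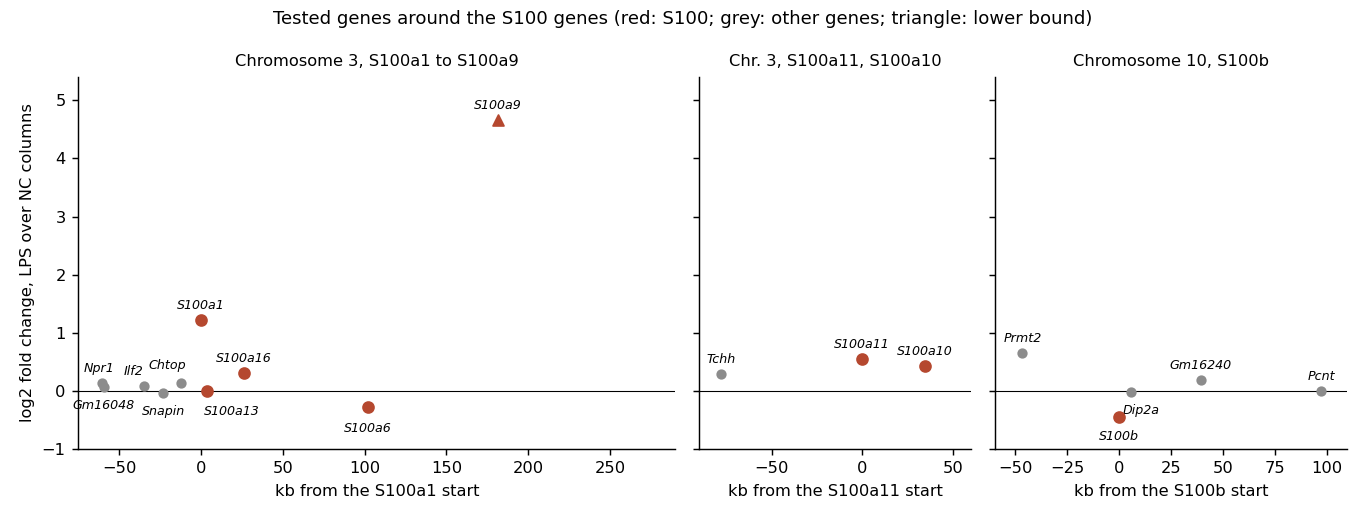
Log2 fold change, LPS set over NC set (y axis), of the tested genes against distance in kb from the S100a1, S100a11 or S100b start (x axes). S100 genes are red, other genes within 100 kb grey, and the triangle is the lower bound of S100a9. S100a1 and S100a9 stand above all grey genes of the 3 panels, which lie between -0.04 and 0.64. The grey genes nearest to S100a1 lie between -0.04 and 0.13, and no grey gene has S100a9 as its nearest member.

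Few of the genes beside the members were high enough to be tested. Within 100 kb of a member's start lay 35 other rows, of which 12 had 0 counts in all libraries and 10 were tested. Of those 10, 2 rose, 0 fell and 8 were not called, with a median log2 fold change of 0.10, where 31.5% of all genes tested were called in either direction and 15.2% were higher. The 2 that rose were Tchh, the hair follicle protein trichohyalin gene, by 0.29 ± 0.09 and Prmt2, an arginine methyltransferase gene next to S100b, by 0.64 ± 0.17 (log2, SE), named after their values were seen. Chtop, the nearest tested gene on the other side of S100a1, was at 0.12 ± 0.06 and not called.

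Other genes of the family were at or near 0. S100a5, S100a14 and, outside the lists, S100a2 and the pseudogene S100a11-ps had 0 counts in all 4 libraries, and S100a3 and S100g had 0 and 1 in the LPS set and 0 in both libraries of the NC set. S100a7a had 0 counts in both libraries of the LPS set and 1 and 2 in the NC set, and S100z had 2 and 3 in the LPS set and 2 and 1 in the NC set. For none of these was a difference detectable at this depth. S100pbp, whose product binds an S100 protein in human, was not called, at 0.04 ± 0.09 (log2, SE).

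**Figure D5:**
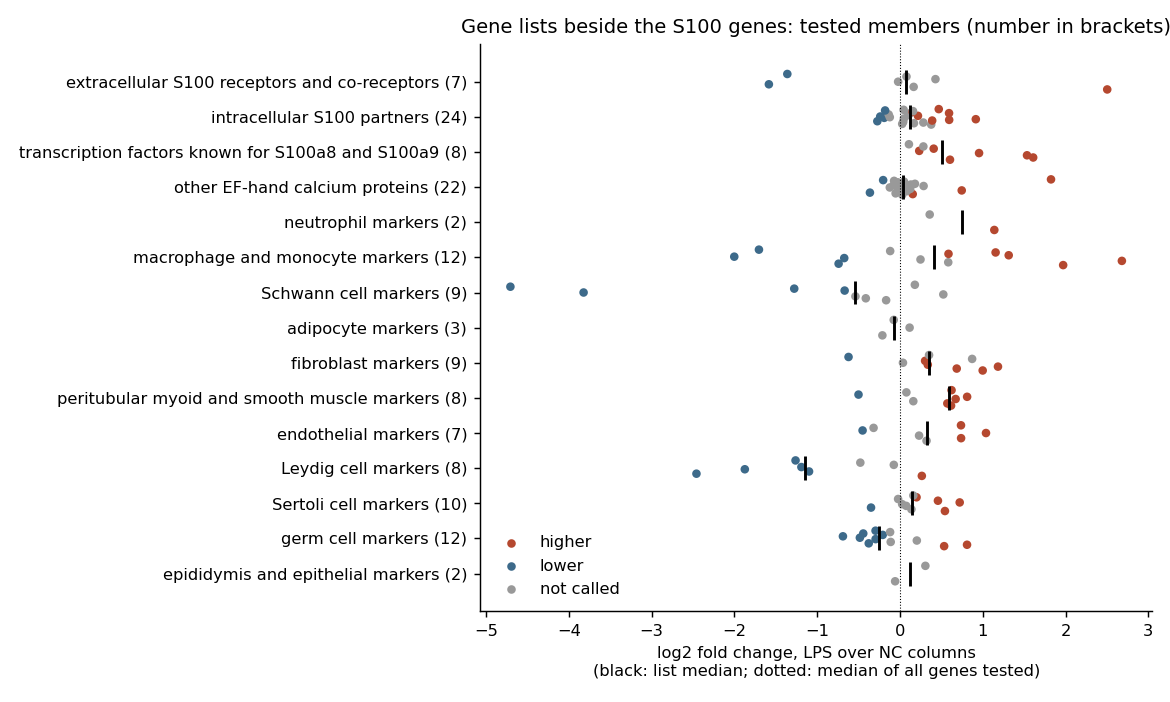
Log2 fold change, LPS set over NC set (x axis), of the tested genes in each list (rows, number tested in brackets), with genes at 0 in the LPS set drawn at their bound. Black bars are list medians, from -1.14 for Leydig cell markers to 0.75 for the 2 tested neutrophil markers, and the dotted line is the median of all genes tested.

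Of 24 tested intracellular partners of S100 proteins, 7 rose, 4 fell and 13 were not called, with a median of 0.12, against 15.2% of all genes tested higher and 16.3% lower. Besides Plat and Myh9, the largest called values were those of Ryr2, the cardiac ryanodine receptor gene, at 0.59 ± 0.19 and Ezr, the membrane-cytoskeleton linker ezrin, at 0.47 ± 0.07 (log2, SE). Ryr2 was not called by DESeq2 (adjusted p = 0.197), nor by edgeR without library LPS 2 (adjusted p = 0.0680) or library NC 1 (adjusted p = 0.156). The calcium pump gene Atp2a2 in that list was not called by edgeR, at 0.11 ± 0.06 (log2, SE). Of 22 tested EF-hand genes outside the family, 3 rose, 2 fell and 17 were not called, with a median of 0.03, and the 3 of 22 higher are no more than the 15.2% over all genes. Lcp1, an actin-bundling protein of leukocytes, rose by 1.82 ± 0.18 and Chp2, a calcineurin-like protein gene, by 0.75 ± 0.11, while Calml4 fell by 0.36 ± 0.11 and Aif1 fell by 0.20 ± 0.05. DESeq2 did not call Calml4 (adjusted p = 0.122), nor did edgeR without library NC 1 (adjusted p = 0.0538), and the Aif1 call was lost without library NC 2 (edgeR adjusted p = 0.0663).

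Stromal and tubular cell markers moved beside the family as well. Of 9 tested fibroblast markers 5 rose and 1 fell, of 8 peritubular myoid and smooth muscle markers 5 rose and 1 fell, and of 7 endothelial markers 3 rose and 1 fell. Of 10 Sertoli cell markers 4 rose and 1 fell, of 8 Leydig cell markers 1 rose and 5 fell, and of 12 germ cell markers 2 rose and 7 fell. Over all 20855 genes tested, 15.2% were called higher and 16.3% lower. None of 3 adipocyte and 2 epididymis and epithelial markers was called by edgeR, and the epididymis markers Lcn5 and Lcn8 had 0 counts throughout. Summed fibroblast markers were at 167 and 194 CPM in the LPS set and 113 and 106 CPM in the NC set. Most of that gap lay in the collagen genes Col3a1, Col1a2 and Col1a1. Summed germ cell markers were at 14676 and 14162 CPM in the LPS set and 20825 and 20083 CPM in the NC set. Most of that gap lay in Prm2, Tnp2, Tnp1 and Prm1, with Prm2 averaging 6503 CPM in the LPS set and 10485 CPM in the NC set. Sycp3, Dmc1 and Odf1 were not called, and Stra8 and Zbtb16 rose. The part of these shifts in the S100 results was not tested.

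The called markers with the largest changes, and some that went the other way, were as follows (log2, SE). Collagen genes of fibroblasts rose, Col3a1 by 1.18 ± 0.08, Col1a1 by 0.999 ± 0.096 and Col1a2 by 0.69 ± 0.08, and Pi16 fell by 0.62 ± 0.17. The contractile and cytoskeletal genes Des, Cnn1, Lmod1 and Acta2 rose by 0.81 ± 0.17, 0.67 ± 0.17, 0.62 ± 0.09 and 0.62 ± 0.07. In the same list Actg2 was lower, at -0.50 ± 0.05. Of endothelial genes, the angiopoietin receptor gene Tek rose by 1.04 ± 0.23, Cdh5 by 0.74 ± 0.19 and Cldn5 by 0.74 ± 0.28, and Vwf fell by 0.45 ± 0.12. The steroid synthesis genes Cyp17a1, Hsd3b6, Hsd17b3 and Star fell by 2.46 ± 0.07, 1.87 ± 0.10, 1.26 ± 0.07 and 1.19 ± 0.07, while Cyp11a1 rose by 0.26 ± 0.07. The Sertoli genes Rhox5, Sox9 and Clu rose by 0.72 ± 0.09, 0.54 ± 0.08 and 0.46 ± 0.05, and Amhr2 fell by 0.35 ± 0.07. Among germ cell genes, Stra8 rose by 0.81 ± 0.08 and Zbtb16 by 0.53 ± 0.17, and the protamine genes Prm2 and Prm1 fell by 0.69 ± 0.05 and 0.48 ± 0.05. DESeq2 did not call Pi16, Cnn1, Cdh5, Vwf, Cldn5 or Zbtb16, and each of these but Cnn1 also lost its edgeR call with at least 1 library left out.

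For each called member, the tested gene with the nearest profile was sought by Euclidean distance between log2 CPM values over the 4 libraries, each centred on its own mean. For S100a9 this was Gm14296, with 38 and 33 counts in the LPS set and 0 in both libraries of the NC set (distance 0.0956, among 193 genes of like level). For S100a1 it was Gm3476 (distance 0.153), for S100a10 Ulk3 (0.0320) and for S100a11 Cers6 (0.0363), out of 5221 to 5340 genes of like level. Ulk3 itself was not called (edgeR adjusted p = 0.122). Gm3476 and Cers6 overlap other gene models on the same strand, so their reads are uncertain. With 4 libraries in 2 groups, such distances mostly sort genes by their difference between the groups.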

How the data were processed

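RNA was measured in 4 libraries of whole mouse testis. A stranded mRNA kit was used on TRIzol-extracted RNA, per the labels' protocols. The deposited values are raw counts per gene in 1 table, made by the authors; per the submitters' processing notes the build was mm10 and the tools were Subread 1.5.1, featureCounts, STAR 2.5.3a, Trimmomatic 0.36, DESeq and edgeR 3.12.1, with no roles given. For annotation release and strand setting nothing is given in the sources used here, so reads of overlapping or antisense genes cannot be assigned with certainty.

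Counts were filtered with filterByExpr, scaled by TMM and compared with edgeR 4.0.16 (quasi-likelihood test, 2 residual and 34 prior degrees of freedom, Benjamini-Hochberg over 20855 genes, called under 0.05), tested on simulated data first. SEs come from the F statistic. RPKM used the deposited gene lengths. Intervals of log2 fold changes were built from the SEs, so they include the spread between libraries. The exact binomial interval of S100a8 and the floors of 3 counts cover counting error only. Replicates differed by more than sampling noise (chi-square per degree of freedom 2.45 in the LPS set and 2.34 in the NC set). Alternatives were library-size scaling, DESeq2 1.42.0, limma 3.58.1 (voom), no filter, a replicate block, each library left out, and CPM in place of RPKM.

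The members and lists were chosen with earlier results of these data known. Named were all members, other S100 genes, direct partners, up to 4 called genes per list with the largest absolute log2 fold change, called neighbours within 100 kb with at least 1 log2 unit (there were none) and 1 nearest profile per called member. Some further list genes were named because they weighed on a summed level or differed in direction or call.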

Additional observations from a re-analysis of the deposited data

How the results depend on the processing

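The count of S100 members higher in the LPS set was 4 in the main test and also 4 with library-size scaling, limma-voom, no filter and the replicate block, 2 with DESeq2, and 2 to 4 with 1 library left out, the lowest without library NC 1. No member was called lower under any of the 9 alternatives, in edgeR, DESeq2 or limma, and none of those not called had an unadjusted p under 0.05 with a lower level in the main test. Over all genes, DESeq2 called 1454 higher and 1845 lower, against 3169 and 3394 in the main test. Under library-size scaling the split turned to 4207 higher and 2579 lower. The replicate numbers were not shown to pair samples (correlation of the deviations of equal numbers over genes 0.0155), and with the replicate block 3376 genes were higher and 3594 lower.

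Signs turned only in genes that were not called. S100a13 was at 0.056 with library-size scaling and 0.000085 with no filter. With 1 library left out, S100a13 ranged from -0.098 to 0.088, S100a6 from -0.52 to 0.034, S100b from -1.24 to 0.29, Anxa2 from -0.0082 to 0.069 and Il1a from -0.19 to 0.45. The causes were not tested. Without division by length, S100a10 ranked 2nd and S100a11 3rd in both groups. Depth limits S100a4, S100a8, Tlr4, Ager and Fgf1, which were too low to be tested.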
